A study of Mus musculus with 4 samples.

Results

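The genes described here are the transcription factor NRF2, encoded by Nfe2l2, and 9 genes long known as its targets in defence against oxidants: Nqo1, Hmox1, Gclc, Gclm, Txnrd1, Srxn1, Slc7a11, Gpx2 and Me1. They were chosen by name, with no cut on level, and all 10 were found by NCBI gene ID among the 17505 genes of the expression table. The question behind the samples was what the intestine does after X-ray damage when its epithelium lacks CREPT, the product of Rprd1b. Total RNA came from intestines of C57BL/6 mice, harvested 3 days after 10 Gy of X-rays, and 2 Vil-CREPTKO and 2 wild-type (WT) libraries were sequenced on the BGISEQ-500 platform. Vil-CREPTKO mice carry floxed CREPT alleles and a Cre recombinase driven by villin, so the gene is lost in intestinal epithelial cells while stromal, immune and vascular cells keep it. Both groups were irradiated, and no unirradiated library was analysed here. The study used young adult mice of both sexes. It bred Vil-CREPTKO mice by crossing floxed animals with and without Cre, a mating whose Cre-negative offspring carry floxed alleles, while the labels call the comparison group only WT. The sources used here do not name the segment of intestine. The replicates are described as biological, from separate mice, and the labels do not say which animal gave which library.

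NRF2 is held at a low level by KEAP1, an adaptor that passes it to a ubiquitin ligase for destruction. Oxidants and electrophiles modify KEAP1, NRF2 accumulates, pairs with a small MAF protein and binds antioxidant response elements near its targets. Its control is therefore mainly at the protein, and the level of Nfe2l2 RNA alone does not read its activity. Ionizing radiation makes reactive oxygen species, and the gut epithelium also meets dietary electrophiles, which glutathione, thioredoxin and quinone reductases dispose of.

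Levels are FPKM, fragments scaled by transcript length and by all mapped fragments of the library, so levels of different genes can be compared per length. The spacing of the lowest values put the depth between 17300000 and 18200000 fragments per library, and 1 fragment on a transcript of 1 kb then counts for 0.0549 to 0.0578 FPKM. The targeted gene, Rprd1b, was at 4.01 and 3.93 FPKM in Vil-CREPTKO and at 5.99 and 7.19 FPKM in WT libraries. Both Vil-CREPTKO values lay below both WT values. In the limma test set out below, the log2 difference of Rprd1b was -0.61 (SE 0.151, adjusted p = 0.129). The targeted gene itself was therefore not called. Only part of the gene is floxed, and these are values of the whole gene in tissue whose other cells keep it. By staining, the study reported CREPT protein to be lost from intestinal epithelial cells of Vil-CREPTKO mice. The libraries differed in tissue content as well. A list of 11 genes of stomach mucous and gland cells summed to 27.4 and 114 FPKM in Vil-CREPTKO and to 39087 and 42425 FPKM in WT libraries, and 12 pancreatic enzyme genes to 101.5 and 11845 FPKM against 21780 and 7921 FPKM. All 11 genes of the stomach list were lower in both Vil-CREPTKO libraries, against 22.1% of all tested genes. Most of the WT sum came from Tff2, at 6.56 and 46.1 FPKM in Vil-CREPTKO and 22395 and 24364 FPKM in WT libraries, and from Gkn3, at 4.56 and 6.3 FPKM against 8683 and 13491 FPKM. Neither is confined to stomach, since Brunner's glands of the duodenum make Tff2 and Gkn3 is also listed among intestinal stem cell genes, while Muc5ac, the surface mucin of stomach, was at 0.03 and 0.05 FPKM against 94.3 and 28.8 FPKM in WT. The signal of this list follows genotype in every library, so its part in any difference below cannot be told apart from that of the deletion. In bulk RNA, fewer cells of a type and less RNA per cell cannot be told apart either.

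Promoter windows of RefSeq (build GRCm38.p6, 250 bases before to 50 bases after an annotated start) were at hand for 8 of the 10 genes, in 11 windows. Hmox1 and Gclc were not matched. The windows were searched on both strands for the core of the antioxidant response element, TGACNNNGC, and for TGANTCAGC, the form in which an AP-1 like site is followed by GC. The motifs overlap where the sequence is TGACTCAGC. The core lay in 5 of the 11 windows, of 5 genes, and in 12.4% of all 32851 windows. TGANTCAGC lay in 2 of the 11 windows and in 1.19% of all windows. The stretches of 60 bases below are those around each match, shown so that the matched letters can be read. Of Nqo1, Me1 and Gpx2, the members with the largest differences, only Me1 held a match in these windows. Each reads 5′ to 3′ on the strand of the gene, with the matched letters in capitals.
Me1, chr9:86695887-86695946, minus strand: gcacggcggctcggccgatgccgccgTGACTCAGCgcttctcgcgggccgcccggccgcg
Srxn1, chr2:152105453-152105512, plus strand: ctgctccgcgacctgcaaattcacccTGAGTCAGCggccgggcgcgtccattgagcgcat
Srxn1, chr2:152105514-152105573, plus strand: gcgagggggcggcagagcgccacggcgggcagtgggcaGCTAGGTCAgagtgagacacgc
Gclm, chr3:122245397-122245456, plus strand: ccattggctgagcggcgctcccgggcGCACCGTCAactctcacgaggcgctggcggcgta
Txnrd1, chr10:82859088-82859147, plus strand: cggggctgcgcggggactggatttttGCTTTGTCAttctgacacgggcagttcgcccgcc
Nfe2l2, chr2:75704854-75704913, minus strand: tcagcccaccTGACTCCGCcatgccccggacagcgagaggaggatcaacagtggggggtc

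In Me1 the match begins 6 bases before the start and holds both motifs. In Srxn1 TGANTCAGC begins 45 bases before the start, and a core read on the opposite strand begins 28 bases after it. In Gclm, Txnrd1 and Nfe2l2 the core begins 134, 92 and 240 bases before the start, on the opposite strand in Gclm and Txnrd1. The Txnrd1 match is at 1 of its 3 annotated starts, and that of Me1 at 1 of its 2. The windows of Nqo1, Gpx2 and Slc7a11 held neither motif, which says only that these letters are not in these windows.

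Nqo1 and Me1 were lower in Vil-CREPTKO intestine, and Gpx2 was higher in both Vil-CREPTKO libraries without passing the test. The other 6 tested members gave log2 differences between -0.30 and 0.24. A gene was called when limma's adjusted p was under 0.05 and its difference exceeded 1 in size as log2(FPKM + 1), a scale on which changes of low genes come out too small. Of the 10 members, 9 reached a mean of 1 FPKM over the 4 libraries and were tested, and Slc7a11 was not. Of these 9, 2 (22.2%) were called lower, against 1.69% of the 11621 genes tested, and 0 were called higher, against 0.387%. At an unadjusted p under 0.05 limma gave 3 members (33.3%), Gpx2 higher and Nqo1 and Me1 lower, against 20.2% of all tested genes. The like counts for each list below stand against the same 20.2%. Both Vil-CREPTKO values lay above both WT values in 3 members (33.3%, against 31.9% of all genes) and below them in 4 (44.4%, against 22.1%). With only 9 genes these shares describe the members and no more. Their median log2 difference was -0.041, and that of all tested genes 0.059.

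**Figure D1:**
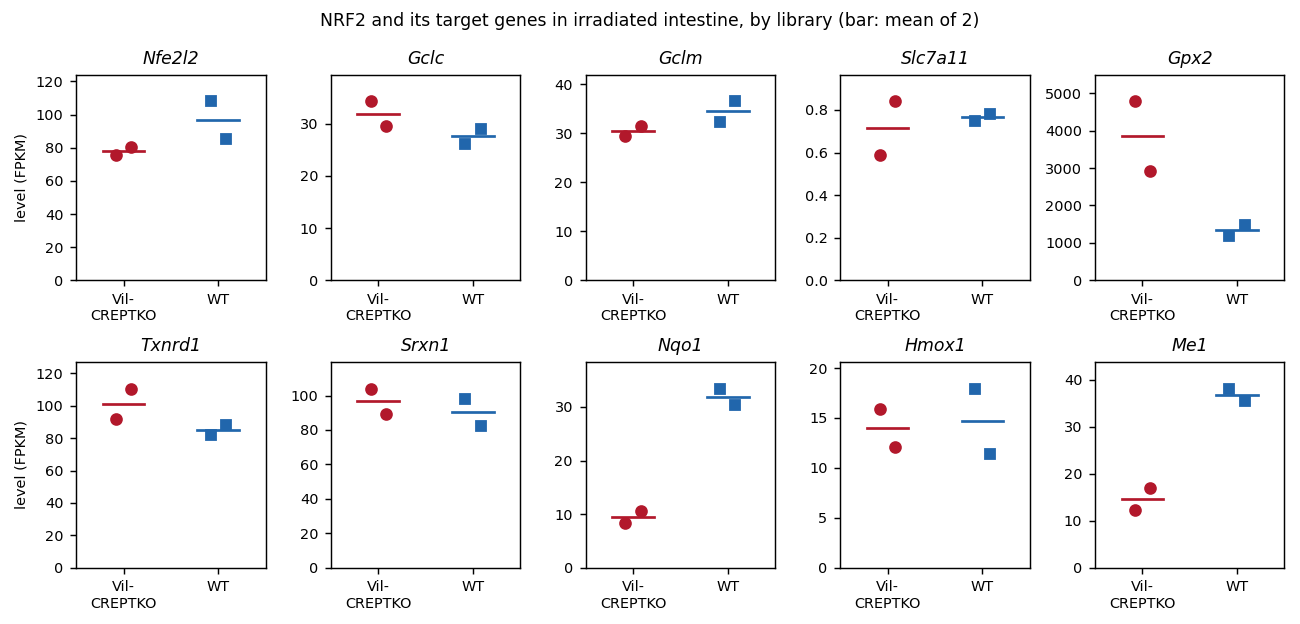
FPKM of each of the 10 genes in each library, on linear axes from 0 that differ between panels, with circles for Vil-CREPTKO, squares for WT and a bar at the mean of 2 libraries. The groups are far apart in Nqo1, Me1 and Gpx2, and interleaved in Hmox1, Srxn1 and Slc7a11.

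**Figure D2:**
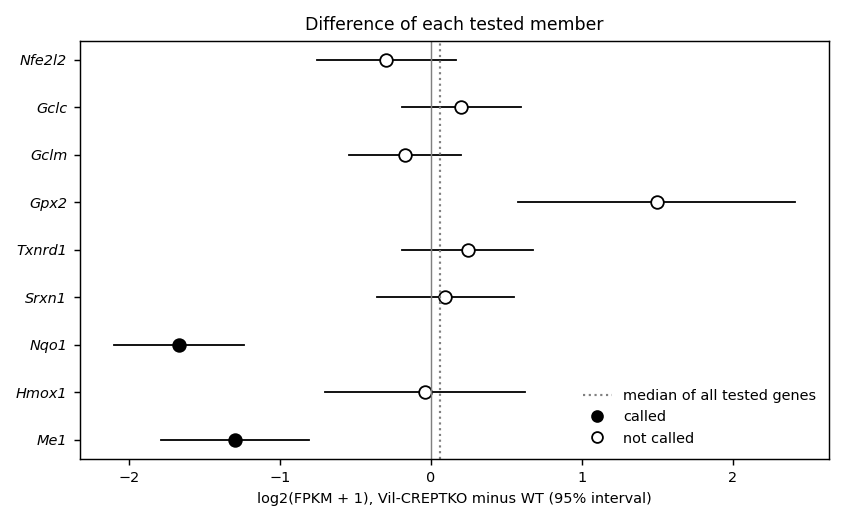
Log2(FPKM + 1) in Vil-CREPTKO minus WT for the 9 tested members, with 95% intervals from limma. Filled points (Nqo1 and Me1) were called, open points were not, and the dotted line is the median of all tested genes at 0.059. The signs of Gclc, Txnrd1 and Srxn1 turn negative when libraries are centred on epithelial genes.

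Nfe2l2 (chromosome 2, 75675513 to 75704663, GRCm38.p6), the regulator itself, was at 75.7 and 80.5 FPKM in Vil-CREPTKO and at 107.9 and 85.4 FPKM in WT libraries. Both Vil-CREPTKO values were the lower ones, but the gap between groups was narrower than that between the WT libraries. The log2 difference was -0.30 (SE 0.179, 95% interval -0.75 to 0.16, limma adjusted p = 0.410), and the gene was not called.

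Of 19 listed genes that hold NRF2 in check or act as its partners, 17 were tested. Of these, 0 were called higher (against 0.387% of all tested genes) and 0 lower (against 1.69%). At such shares a count of 0 among 17 genes says little about them. In limma 3 (17.6%, against 20.2% of all tested genes) had an unadjusted p under 0.05. Keap1, the adaptor, had 11.5 and 11.3 FPKM in Vil-CREPTKO and 17.1 and 15.4 FPKM in WT libraries, a log2 difference of -0.47 (SE 0.135, limma adjusted p = 0.157). Bach1, a repressor that competes for the same elements, had 13.9 and 13.8 FPKM against 10.8 and 10.7 FPKM in WT (0.34, adjusted p = 0.235). The small MAF partners gave 0.45 for Mafg (adjusted p = 0.163), 0.33 for Mafk (0.359) and 0.18 for Maff (0.654). Sqstm1, whose product p62 binds KEAP1, was the most abundant of the list at 133.2 and 116 FPKM in Vil-CREPTKO and 107 and 98.4 FPKM in WT libraries (0.28, adjusted p = 0.399). The list's median was 0.11, with 13 of 17 genes above 0, as were 57.4% of all tested genes. The number above 0 was 8 when the stomach and pancreatic genes were left out of the library totals. It was 1 when libraries were centred on epithelial genes. No direction can be given for it.

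Gclc and Gclm encode the catalytic and modifier subunits of glutamate-cysteine ligase, the rate-limiting step of glutathione synthesis. Gclc (chromosome 9, 77754535 to 77794489) was at 34.2 and 29.4 FPKM in Vil-CREPTKO and 26.1 and 29.0 FPKM in WT libraries. Its log2 difference was 0.20 (SE 0.154, 95% interval -0.19 to 0.59, limma adjusted p = 0.510), and it turned to -0.16 when libraries were centred on epithelial genes. Gclm (chromosome 3, 122245487 to 122267215) was at 29.4 and 31.6 FPKM in Vil-CREPTKO and 32.4 and 36.5 FPKM in WT libraries. The difference was -0.17 (SE 0.145, 95% interval -0.54 to 0.20, adjusted p = 0.550). In both genes the nearest values of the groups were closer together than the 2 libraries of either group.

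Slc7a11, the cystine carrier xCT that feeds glutathione synthesis, lies on chromosome 3 (50364936 to 50499087). It was the lowest member, at 0.59 and 0.84 FPKM in Vil-CREPTKO and 0.75 and 0.78 FPKM in WT libraries, so the WT values fell between the Vil-CREPTKO ones. Without the filter on low values its log2 difference was -0.05 (limma adjusted p = 0.853). Its partner chain Slc3a2 was abundant, with 94.6 and 100.5 FPKM in Vil-CREPTKO and 103 and 87.5 FPKM in WT libraries (0.04, adjusted p = 0.910). Gss, the second enzyme of the synthesis, had 103 and 92.01 FPKM against 98.1 and 95.6 FPKM in WT (0.01, adjusted p = 0.980).

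Among 27 further genes of glutathione synthesis and use, 26 were tested. In limma 6 of them (23.1%, against 20.2% of all tested genes) had an unadjusted p under 0.05. Of the 26, 0 were called higher (against 0.387%) and 1 lower (3.85%, against 1.69%). That gene was Cbs, which makes cystathionine on the route from methionine to cysteine. It had 0.36 and 0.65 FPKM in Vil-CREPTKO and 3.17 and 2.44 FPKM in WT libraries, a log2 difference of -1.34 (SE 0.192, limma adjusted p = 0.0445). It passed the filter through its WT values alone, and without WT replicate 1 or 2 its adjusted p was 0.360 or 0.234. The median of the 26 was -0.015.

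Gpx2 (chromosome 12, 76792335 to 76795554) encodes the glutathione peroxidase of gut epithelium, which is found mostly towards the crypt base. It was by far the most abundant member, and ranked 9 among all genes by mean level in Vil-CREPTKO and 44 in WT intestine. Its levels were 4779.5 and 2932 FPKM in Vil-CREPTKO and 1187.5 and 1486 FPKM in WT libraries. The lower Vil-CREPTKO value was 1.97 times the higher WT value, and the ratio of means was 2.88. The Vil-CREPTKO libraries also differed from each other 1.63-fold, and the log2 difference of 1.49 (SE 0.359, 95% interval 0.57 to 2.41) had an unadjusted p of 0.00855 and an adjusted p of 0.122 in limma. Gpx2 was therefore not called. It was called without Vil-CREPTKO replicate 2, at 1.85 (adjusted p = 0.00617), and when libraries were centred on epithelial genes, at 1.13 (adjusted p = 0.0332). GENCODE annotates a pseudogene copy of Gpx2, and how the authors' counting divided reads between them was not tested.

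The sums of Paneth cell and general epithelial markers were higher in Vil-CREPTKO, as Gpx2 was, while those of crypt stem cell and cycling markers were not. The 13 Paneth cell genes, from the base of the crypt, summed to 19076 and 6993 FPKM in Vil-CREPTKO and to 3013 and 3097 FPKM in WT libraries. Of the 13, 11 (84.6%, against 31.9% of all tested genes) were higher in both Vil-CREPTKO libraries. In limma 0 of them were called higher (against 0.387%) and 1 lower (7.69%, against 1.69%). The gene called lower was Habp2, at 3.34 and 2.26 FPKM in Vil-CREPTKO and 40.1 and 47.9 FPKM in WT libraries (-3.57, limma adjusted p = 0.00417). General epithelial genes (16) summed to 14355 and 11533 FPKM in Vil-CREPTKO and to 9656 and 9690 FPKM in WT libraries. Of these, 12 (75%, against 31.9%) were higher in both Vil-CREPTKO libraries. The same held for 72.7% of tested macrophage genes and 100% of tested endothelial genes, so the rise was not particular to Paneth and epithelial lists. Crypt stem cell genes (11) summed to 83.0 and 62.7 FPKM in Vil-CREPTKO and to 118 and 132 FPKM in WT libraries. Cycling genes (14) summed to 169 and 162 FPKM against 170 and 218 FPKM in WT. The median log2 differences of these 2 lists were -0.37 and -0.40, against 0.059 for all tested genes. Vil-CREPTKO replicate 1 was the higher of its pair for Gpx2, Paneth and epithelial sums alike, and the part of these cells in the Gpx2 values was not tested. The genes with the profiles most like that of Gpx2 over the 4 libraries were Il33, Rab11fip5 and Lct, at Euclidean distances of 0.185, 0.212 and 0.215 between log2 values centred on their mean.

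**Figure D3:**
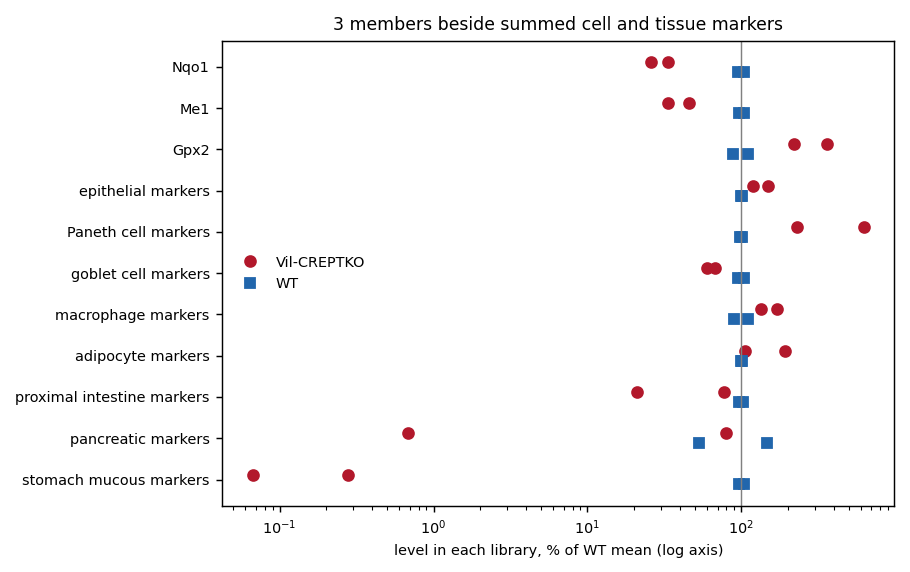
Nqo1, Me1, Gpx2 and the summed FPKM of 8 marker lists in each library, as a percentage of the WT mean on a log axis, with circles for Vil-CREPTKO and squares for WT. Gpx2 stands at 357% and 219% in Vil-CREPTKO libraries and Paneth genes at 624% and 229%, while Nqo1 stands at 25.9% and 33.1% and stomach mucous genes at 0.0672% and 0.28%.

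Txnrd1 and Srxn1 keep thiol peroxidases working. Txnrd1 (chromosome 10, 82833951 to 82897724), the cytosolic thioredoxin reductase, had 91.9 and 111 FPKM in Vil-CREPTKO and 81.8 and 88.3 FPKM in WT libraries. The values did not overlap, but the log2 difference was 0.24 (SE 0.170, 95% interval -0.19 to 0.68, limma adjusted p = 0.469) and became -0.12 when libraries were centred on epithelial genes. Srxn1 (chromosome 2, 152105524 to 152111376), the sulfiredoxin that repairs over-oxidized peroxiredoxins, had 104 and 89.1 FPKM in Vil-CREPTKO and 98.2 and 82.5 FPKM in WT libraries. The groups interleaved, with a difference of 0.10 (SE 0.178, 95% interval -0.36 to 0.55, adjusted p = 0.793) that turned to -0.04 when the stomach and pancreatic genes were left out of the totals.

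The wider thioredoxin and peroxiredoxin list had 18 genes, all tested. Of these, 0 were called higher (against 0.387% of all tested genes) and 0 lower (against 1.69%). In limma 1 (5.56%, against 20.2%) had an unadjusted p under 0.05, and the median of the list was 0.09. Its most abundant genes were Prdx5, a peroxiredoxin, at 951.6 and 793 FPKM in Vil-CREPTKO and 556 and 658 FPKM in WT libraries (0.52, limma adjusted p = 0.290), and Selenop, a secreted selenoprotein, at 535 and 323 FPKM against 321 and 483 FPKM in WT (0.08, adjusted p = 0.920). Txn1, the thioredoxin that Txnrd1 reduces, had 762 and 685 FPKM in Vil-CREPTKO and 497 and 609 FPKM in WT libraries (0.39, adjusted p = 0.384). Gsr, the reductase of oxidized glutathione, had 110.5 and 95.2 FPKM against 67.7 and 79.1 FPKM in WT, a difference of 0.48 (95% interval 0.04 to 0.92, adjusted p = 0.221).

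Nqo1 (chromosome 8, 107388225 to 107403205), the quinone reductase that is widely used as a readout of NRF2, showed the largest fall among the tested members. Its levels were 8.26 and 10.6 FPKM in Vil-CREPTKO and 33.4 and 30.4 FPKM in WT libraries. Every WT value was at least 2.88 times every Vil-CREPTKO value, and the WT mean was 3.39 times the Vil-CREPTKO mean. The log2 difference was -1.67 (SE 0.169, 95% interval -2.10 to -1.24, limma adjusted p = 0.0208). It lay between -1.51 and -1.83 with any 1 library left out, but without WT replicate 1 or 2 the adjusted p was 0.294 or 0.212, and without the filter on low values it was 0.0566. Stomach mucous genes followed the same order of groups. Goblet cell genes summed to 7605 and 6743 FPKM in Vil-CREPTKO and to 11784 and 10796 FPKM in WT libraries. Of these 10, 8 (80%, against 22.1% of all tested genes) were lower in both Vil-CREPTKO libraries. The part of these cells in the Nqo1 values was not tested.

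The profiles nearest to that of Nqo1 over the 4 libraries were those of Insig1 (distance 0.0833), Enpp5 (0.122) and Mlph (0.127). Insig1, which restrains sterol synthesis, had 8.08 and 11.3 FPKM in Vil-CREPTKO and 33.4 and 30.8 FPKM in WT libraries, almost the values of Nqo1 itself. The nearest member was Me1, at a distance of 0.380 and a rank of 45 among all tested genes.

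Hmox1 (chromosome 8, 75093618 to 75100593), heme oxygenase 1, is induced through NRF2 and released from BACH1 repression by heme, and macrophages that recycle red cells hold much of it. It had 15.9 and 12.1 FPKM in Vil-CREPTKO and 17.9 and 11.4 FPKM in WT libraries. Both Vil-CREPTKO values fell within the WT range, and the difference of -0.04 (SE 0.259, 95% interval -0.70 to 0.62, limma adjusted p = 0.943) was far below the spread within each group. It changed sign with the library left out, from -0.35 to 0.26 over the 4 choices. Macrophage genes (14) summed to 545.5 and 426 FPKM in Vil-CREPTKO and to 288 and 350.5 FPKM in WT libraries. Of the 11 tested, 8 (72.7%, against 31.9% of all tested genes) were higher in both Vil-CREPTKO libraries. The part of these cells in the Hmox1 values was not tested. Hmox2, the constitutive oxygenase, had 43.3 and 39.7 FPKM against 29.9 and 38.5 FPKM in WT (0.28, adjusted p = 0.424).

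Of 17 genes of heme and iron handling, 15 were tested. Of these, 0 were called higher (against 0.387% of all tested genes) and 0 lower (against 1.69%). In limma 4 (26.7%, against 20.2%) had an unadjusted p under 0.05, and the median was -0.24. The most abundant were Slc40a1, the iron exporter ferroportin, at 33.4 and 283 FPKM in Vil-CREPTKO and 269.7 and 262 FPKM in WT libraries (-1.43, limma adjusted p = 0.457), and Cybrd1, the duodenal ferric reductase, at 43.8 and 145 FPKM against 329 and 304 FPKM in WT (-1.97, adjusted p = 0.156). Both belong to a list of 7 proximal intestine genes, which summed to 147 and 539.5 FPKM in Vil-CREPTKO and to 726 and 682 FPKM in WT libraries. Slc40a1 and Cybrd1 made up most of that sum in every library, so it is no separate measure beside them. Of the 6 genes of that list that were tested, 2 (33.3%, against 22.1% of all tested genes) were lower in both Vil-CREPTKO libraries. Cybrd1 was called with either Vil-CREPTKO library left out, and Slc40a1 without Vil-CREPTKO replicate 2.

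Me1 (chromosome 9, 86581363 to 86695914) is the cytosolic malic enzyme, which makes NADPH for the reductases above and for fatty acid synthesis. It had 12.2 and 16.9 FPKM in Vil-CREPTKO and 38.1 and 35.4 FPKM in WT libraries. No WT value was less than 2.10 times a Vil-CREPTKO value, and the WT mean was 2.53 times the Vil-CREPTKO mean. The log2 difference was -1.30 (SE 0.191, 95% interval -1.79 to -0.81), with an adjusted p of 0.0472 in limma that lay close to the threshold. It rose past 0.05 under 5 alternatives with all libraries kept and no block, to between 0.0527 and 0.0958, and to 0.379 or 0.280 without WT replicate 1 or 2. The difference itself stayed between -1.08 and -1.52 with any library left out. Fat cells hold much Me1, and 10 adipocyte genes summed to 239 and 131 FPKM in Vil-CREPTKO and to 122 and 125.5 FPKM in WT libraries. Of the 7 tested, 1 (14.3%, against 31.9% of all tested genes) was higher in both Vil-CREPTKO libraries and 1 (14.3%, against 22.1%) lower. The sums of the goblet and stomach lists, given above, were lower in both Vil-CREPTKO libraries, as Me1 was. The part of any of these cells in the Me1 values was not tested.

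**Figure D4:**
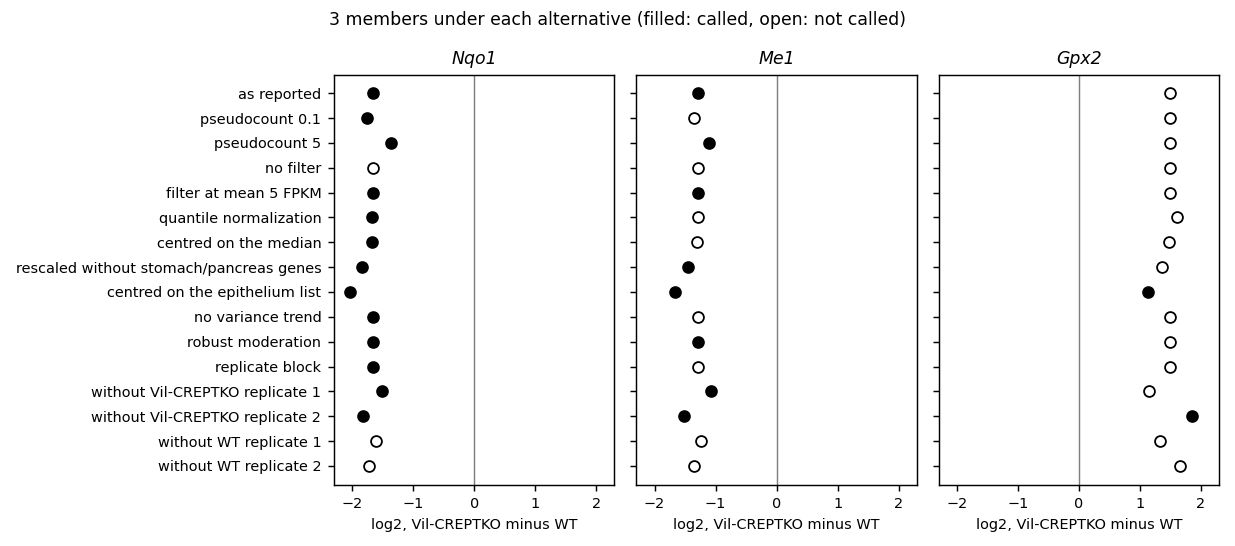
Log2 difference, Vil-CREPTKO minus WT, of Nqo1, Me1 and Gpx2 as reported and under 15 alternative settings, filled where called. Nqo1 and Me1 stay below 0 and Gpx2 above 0 in every row, while the call comes and goes with the setting.

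Of 18 genes listed as other sources of NADPH, 17 were in the table and 16 were tested. Of these, 0 were called higher (against 0.387% of all tested genes) and 0 lower (against 1.69%). In limma 3 (18.8%, against 20.2%) had an unadjusted p under 0.05, and the median was 0.05. G6pdx, which opens the pentose phosphate pathway, had 30.8 and 28.4 FPKM in Vil-CREPTKO and 39.1 and 36.5 FPKM in WT libraries (-0.34, limma adjusted p = 0.262). Pgd, the next dehydrogenase of the pathway, had 220.2 and 160.1 FPKM against 187 and 185 FPKM in WT (0.01, adjusted p = 0.979). Taldo1, its transaldolase, had 388 and 291 FPKM against 240.4 and 259 FPKM in WT (0.43, adjusted p = 0.342), and Idh1, the cytosolic isocitrate dehydrogenase, gave 0.21 (adjusted p = 0.674). Mthfd2, a mitochondrial folate enzyme named after its values were seen, had 5.23 and 5.24 FPKM against 10.5 and 11.4 FPKM in WT (-0.94, adjusted p = 0.0445), short of the fold threshold.

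In the fatty acid synthesis list, where Me1 also serves, 11 of 14 genes were tested and the median was -0.24. Both Vil-CREPTKO values lay below both WT values in 7 (63.6%, against 22.1% of all tested genes) and above them in 0 (against 31.9%). In limma 4 (36.4%, against 20.2%) had an unadjusted p under 0.05. With 11 genes these shares describe the list and no more. Of the 11, 0 were called higher (against 0.387%) and 1 lower (9.09%, against 1.69%). The called gene was Slc25a1, the citrate carrier that supplies cytosolic acetyl groups, at 42.9 and 43.3 FPKM in Vil-CREPTKO and 109.8 and 103 FPKM in WT libraries. Its log2 difference was -1.28 (SE 0.142, limma adjusted p = 0.0251), and without WT replicate 1 or 2 its adjusted p was 0.300 or 0.217. The profiles nearest to that of Me1 were those of Plaat3 (0.0790), Tspan13 (0.0890) and Capsl (0.105), and Nqo1 ranked 71.

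A further 34 genes commonly given as NRF2 targets were set beside the members, and 33 of them were tested. Of these, 3 (9.09%, against 1.69% of all tested genes) were called lower and 0 higher (against 0.387%), with 16 (48.5%, against 20.2%) at an unadjusted p under 0.05 in limma. Both Vil-CREPTKO values lay below both WT values in 17 (51.5%, against 22.1% of all genes) and above them in 6 (18.2%, against 31.9%). Their median log2 difference was -0.41, with 25 of 33 (75.8%) below 0, while 57.4% of all tested genes were above 0. The number below 0 stayed between 24 and 27 under the 4 other scalings and between 21 and 25 with 1 library left out. When libraries were centred on epithelial genes, the median of all tested genes was itself -0.31.

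The called genes were Cbr3, a carbonyl reductase, Ptgr1, which reduces the double bond of reactive lipid aldehydes and prostaglandins, and Pir, an iron-binding nuclear protein. Cbr3 had 1.66 and 3.36 FPKM in Vil-CREPTKO and 11.4 and 13.4 FPKM in WT libraries, a log2 difference of -1.97 (SE 0.269, limma adjusted p = 0.0403). Ptgr1 had 30.1 and 27.2 FPKM against 66.4 and 60.7 FPKM in WT (-1.12, SE 0.147, adjusted p = 0.0362). Pir had 2.38 and 2.43 FPKM against 5.48 and 6.17 FPKM in WT (-1.001, SE 0.143, adjusted p = 0.0445). In all 3 the groups were well apart. Without WT replicate 1 or 2 the adjusted p was 0.359 or 0.291 for Cbr3, 0.345 or 0.234 for Ptgr1 and 0.344 or 0.269 for Pir, whose p was 0.0588 without Vil-CREPTKO replicate 1. The count called lower was 15 without Vil-CREPTKO replicate 2, 4 without replicate 1 and 0 with either WT library left out.

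This list holds 7 soluble glutathione transferases, which join glutathione to electrophiles. Of these, 0 were called higher (against 0.387% of all tested genes) and 0 lower (against 1.69%). Their log2 differences lay between -2.07 and -1.21 in 6 genes and at -0.09 in Gstp1 (limma adjusted p = 0.816). The genes named in this paragraph were chosen after their values were seen. Gsta4 had 104 and 359 FPKM in Vil-CREPTKO and 718 and 926 FPKM in WT libraries (-2.07, limma adjusted p = 0.159). Gsta3 had 5.22 and 9.5 FPKM against 23.9 and 26.2 FPKM in WT (-1.69, adjusted p = 0.0570), and Gstm1 24.0 and 19.7 FPKM against 49.0 and 67.4 FPKM (-1.36, adjusted p = 0.0522). These families hold near-identical copies, so the division of reads among them is uncertain. At the other end, Prdx6, a peroxiredoxin with phospholipase activity, had 544 and 301.2 FPKM in Vil-CREPTKO and 139.5 and 142 FPKM in WT libraries (1.52, adjusted p = 0.0968), and Prdx1 had 653 and 744 FPKM against 356 and 517 FPKM (0.70, adjusted p = 0.235). Prdx6 was called without Vil-CREPTKO replicate 1 (adjusted p = 0.0445) and without replicate 2 (adjusted p = 0.00183).

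**Figure D5:**
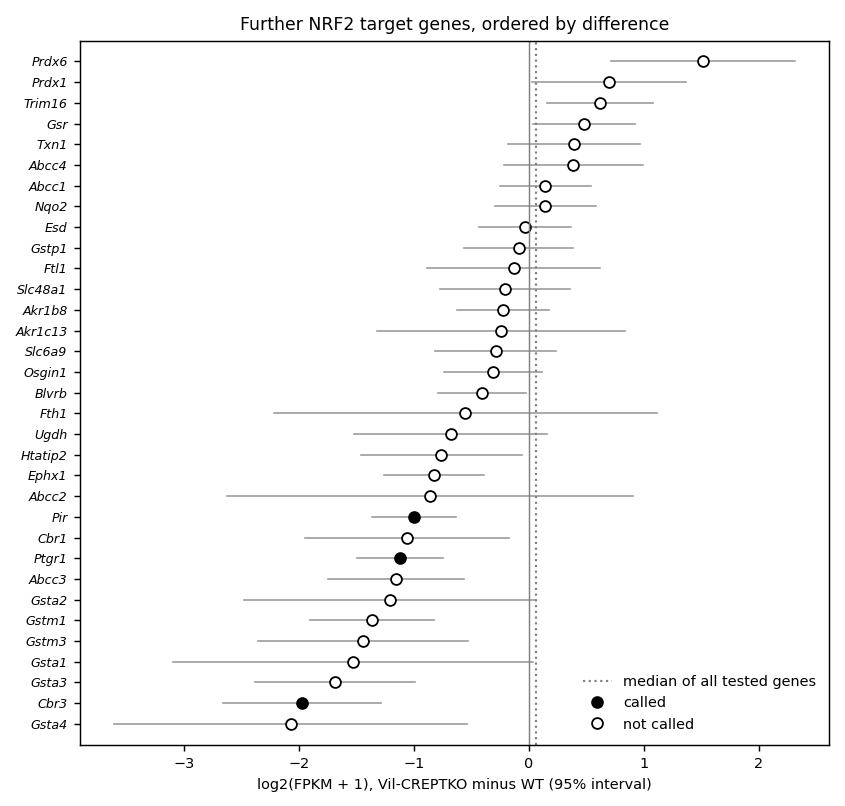
Log2(FPKM + 1) in Vil-CREPTKO minus WT for the 33 tested further NRF2 targets, ordered by difference, with 95% intervals from limma. Filled points (Cbr3, Ptgr1 and Pir) were called, 25 of 33 points lie below 0, and the dotted line is the median of all tested genes at 0.059.

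Among lists of genes that make or remove reactive oxygen by other routes, 0 genes were called higher (against 0.387% of all tested genes) and 0 lower (against 1.69%). At such shares a count of 0 in lists this short says little about them. In the superoxide dismutase and catalase list of 8 genes, 2 had an unadjusted p under 0.05 in limma and the median was 0.12. Sod1, the cytosolic dismutase, had 287 and 379 FPKM in Vil-CREPTKO and 384 and 469 FPKM in WT libraries (-0.36, adjusted p = 0.440), and Pon2, a lactonase with antioxidant action, 71.9 and 67.6 FPKM against 92.9 and 97.8 FPKM (-0.45, adjusted p = 0.195). Of 11 epithelial oxidase genes, 7 were tested, 4 had an unadjusted p under 0.05 and the median was 0.33. Xdh, xanthine dehydrogenase, had 75.1 and 128 FPKM in Vil-CREPTKO and 233 and 173 FPKM in WT libraries (-1.03, adjusted p = 0.171), and was called without Vil-CREPTKO replicate 2. Cyba, the membrane subunit shared by NADPH oxidases, had 94.2 and 76.5 FPKM against 66.3 and 68.2 FPKM in WT (0.33, adjusted p = 0.343).

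Of 6 phagocyte oxidase genes, 5 were tested, all with an unadjusted p under 0.05 in limma (against 20.2% of all tested genes) and 0 called. Ncf1, a cytosolic subunit, had 5.71 and 4.88 FPKM in Vil-CREPTKO and 2.76 and 3.09 FPKM in WT libraries (0.68, adjusted p = 0.109). Rac2, a small GTPase of blood cells that activates the oxidase, went the other way, with 7.43 and 5.07 FPKM against 16.1 and 17.7 FPKM in WT (-1.32, adjusted p = 0.0506). Rac2 was called with either Vil-CREPTKO library left out. Of 9 neutrophil genes measured, 5 were tested. Among them S100a8, at 5.31 and 0.78 FPKM in Vil-CREPTKO and 0 and 0.47 FPKM in WT libraries, passed the filter through Vil-CREPTKO replicate 1 alone. So did S100a9, at 9.06 and 0.78 FPKM against 0.33 and 0 FPKM in WT. The median was 1.16 with 4 of the 5 above 0, from which no direction can be drawn. The exception was Ltf, lactoferrin, named after its values were seen, at 13.9 and 12.6 FPKM in Vil-CREPTKO and 37.8 and 34.7 FPKM in WT libraries (-1.39, adjusted p = 0.0208, and 0.287 or 0.201 without WT replicate 1 or 2), which made up most of the WT sum of the list. That sum was 47.9 and 24.6 FPKM in Vil-CREPTKO and 45.8 and 41.8 FPKM in WT libraries, and the part of these cells in the oxidase values was not tested.

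Slc7a11 and Slc3a2 are also targets of ATF4, the amino acid stress factor. Of 20 genes in a list of ATF4 targets, 17 were tested. Of these, 0 were called higher (against 0.387% of all tested genes) and 0 lower (against 1.69%). In limma 3 (17.6%, against 20.2%) had an unadjusted p under 0.05, and the median was -0.05. Atf4 itself had 121 and 105 FPKM in Vil-CREPTKO and 113 and 104 FPKM in WT libraries (0.06, limma adjusted p = 0.872). Nupr1, a stress-induced nuclear protein, had 127 and 110.7 FPKM against 139 and 99.1 FPKM in WT (0.02, adjusted p = 0.975), so the values of both genes interleaved.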

How the data were processed

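Total RNA from 4 intestine samples (2 Vil-CREPTKO, 2 WT) was sequenced, and the authors deposited 1 table of FPKM. Per the study's methods, reads were mapped to transcripts of GRCm38.p6 with Bowtie2 and quantified with RSEM; the submitters' processing notes also name HISAT and mm10. Labels name the tissue as intestine, while a figure legend of the study speaks of crypts. Read counts were not used, which left out count models and counting intervals. Of 17505 gene IDs, 17473 matched a symbol. Values entered as log2(FPKM + 1), and genes averaging under 1 FPKM over all libraries were left out (11621 tested, 5884 not). limma 3.58.1 in R 4.3.3, with a variance trend, compared the groups, two-sided, with Benjamini-Hochberg adjustment over all tested genes and 2 residual and 3.08 prior degrees of freedom. The fit was tested on simulated data. An exact permutation test of 2 against 2 cannot go below p = 0.333. Groups and replicate numbers came from sample titles. FPKM depend on the library total, so abundant stomach or pancreatic RNA lowers all other values.

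Named genes were the 10 members, Rprd1b, partners of members and the 3 nearest profiles of called members. Up to 4 called genes of a list were named too, or its 2 most abundant where none was called. The nearest profiles of Gpx2, and Mthfd2, Gsta3, Gsta4, Gstm1, Gstp1, Ltf, Tff2, Gkn3, Muc5ac, Prdx1, Prdx6, S100a8, S100a9, Habp2, Agr2, Muc2 and Spink4, were added after values were seen. The members and lists were chosen with earlier results of these data known. Promoters came from RefSeq. Alternatives were pseudocounts of 0.1 and 5, no filter or a filter at 5 FPKM, 4 other scalings, 2 other variance settings, a block for the replicate number, and dropping each library in turn.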

Additional observations from a re-analysis of the deposited data

How the results depend on the processing

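With 2 libraries per group, the number of calls changed widely with the library left out. Over all genes 45 were called higher and 196 lower. Raising the pseudocount to 5 gave 21 and 120, dropping the filter 5 and 73, and other settings gave 92 and 912 (libraries centred on epithelial genes) and 0 to 408 and 4 to 492 (1 library left out). Leaving the stomach and pancreatic genes out of the totals gave 299 lower. Epithelial centring moved the median of all genes by -0.36, and leaving those genes out by -0.12. Where a group kept 1 library, that library was assumed to vary like the other group. Members called lower numbered 2, but 1 with a pseudocount of 0.1, with quantile normalization, with centring on the median and without the variance trend, 0 with no filter, and 0 to 2 with 1 library left out. Members called higher numbered 0, but 1 with epithelial centring and 0 to 1 with 1 library left out. Further NRF2 targets called lower numbered 3, but 0 with no filter, 5 without stomach and pancreatic genes, 14 with epithelial centring and 0 to 15 with 1 library left out, and those called higher 0, 1 with epithelial centring and 0 to 1 with 1 library left out.

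The labels number the replicates, but nothing says that equal numbers share an animal or a day, and the deviations of same-numbered libraries correlated at -0.264. With the replicate number as a block, 14 genes were called higher and 108 lower, 1 member lower and 1 further target lower. The calls of Me1 (adjusted p = 0.0945), Ptgr1 (0.0945), Pir (0.115), Cbs (0.108), Slc25a1 (0.0822) and Ltf (0.0547) were lost, and that of Nqo1 was not (0.0493).

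Of 792 alternative values of 53 named genes, 43 changed sign, in 18 genes, none of them called. With epithelial centring the log2 differences were -0.16 for Gclc, -0.12 for Txnrd1, -0.27 for Srxn1, -0.0867 for Sqstm1, -0.0326 for Mafk, -0.29 for Selenop, -0.35 for Pgd, -0.0324 for Cyba, -0.35 for Nupr1, -0.31 for Atf4, -0.0231 for Bach1, -0.18 for Maff, -0.32 for Slc3a2, -0.36 for Gss, -0.0828 for Hmox2 and -0.16 for Idh1. Without stomach and pancreatic genes they were -0.0402 for Srxn1, -0.0605 for Selenop, -0.12 for Pgd, -0.12 for Nupr1, -0.0798 for Atf4, -0.096 for Slc3a2 and -0.13 for Gss, and Gss was at -0.0088 with quantile normalization and -0.0034 with centring on the median. With 1 library left out the ranges were -0.35 to 0.26 for Hmox1, -0.0284 to 0.22 for Srxn1, -0.29 to 0.44 for Selenop, -0.22 to 0.24 for Pgd, -2.95 to 0.0904 for Slc40a1, -0.22 to 0.26 for Nupr1, -0.0445 to 0.16 for Atf4, -0.0657 to 0.43 for Maff, -0.0738 to 0.15 for Slc3a2, -0.0729 to 0.0900 for Gss and -0.0877 to 0.50 for Idh1. The causes were not tested. Depth was known only by estimate, and Slc7a11, below 1 FPKM in every library, was kept out of the test by the filter.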
